A study of Mus musculus with 4 samples.

Results

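The connexins examined here are 8 genes, *Gjb2*, *Gjb6*, *Gjc1*, *Gja1*, *Gja4*, *Gjc3*, *Gjb1* and *Gjb5*, which were found by their symbols among the 23997 genes of the deposited expression table. The table also lists 12 other connexin genes, so the 8 genes are part of a family of 20. RNA-Seq was carried out on a pair of progenitor populations, called Lgr5+ cells and Lgr6+ cells here, which are the EGFP+ cells of Lgr5-EGFP-IRES-creERT2 mice and of Lgr6-EGFP-IRES-CreERT2 mice. Both were sorted by flow cytometry from C57BL/6 cochleae at P3, and in both lines the reporter and the CreERT2 are placed at the *Lgr* locus itself, so the sorted cells are those in which that locus is active. According to the labels each population has 2 libraries, which makes 4 in all, while the methods describe 3 fractions of the RNA of the same sorted cells as replicates, so how many libraries each combined value holds is not known.

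Connexins are membrane proteins that assemble into hexameric hemichannels, and hemichannels of neighboring cells dock to form gap junctions through which ions, metabolites and second messengers pass. The cochlea has an epithelial gap junction network of supporting cells (SCs) and a connective tissue network of fibrocytes and stria vascularis cells, while hair cells (HCs) are not coupled to them. Connexin 26, encoded by *Gjb2*, and connexin 30, encoded by *Gjb6*, are the main proteins of both networks, and mutations of *GJB2* are a leading cause of inherited deafness in humans.

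In brief, *Gjb2* and *Gjb6* were abundant and close to the same level in both populations, and *Gjc1* was the third connexin, with a level 2.55 times higher in Lgr5+ cells. *Gja1*, *Gja4* and *Gjc3* had low FPKM values that were higher in Lgr6+ cells, *Gjb1* was lower still, and *Gjb5* was listed at 0 in both populations.

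For every gene the table gives a single combined FPKM per population, where FPKM is a fragment count scaled to transcript length and to the mapped fragments of the library. The spread between replicates is therefore not known, no test could be run from these values, and every difference below has no replicate check. Since FPKM is scaled by transcript length, levels of different genes can be set side by side. Genes that reached an FPKM of 1 in either population, 13436 in all, are called kept genes, and the log2 change is log2(FPKM + 1) in Lgr6+ cells minus log2(FPKM + 1) in Lgr5+ cells. Because of the added 1, changes of weakly expressed genes come out smaller than their ratios. The median log2 change of the kept genes was 0.03, and it was 0.28 when the Lgr6+ values were scaled to the summed FPKM of the Lgr5+ values, since the Lgr6+ values added up to 83.3% of what the Lgr5+ values did. Of the genes tied to the sort, *Lgr5* had an FPKM of 9.65 in Lgr5+ cells and 25.0 in Lgr6+ cells. *Lgr6* had 2.06 and 2.90, and *Sox2*, an SC marker, had 139.6 and 54.8. The populations come from different reporter lines, and the data hold no EGFP- cells, so these values cannot check the sort. The paper describes Lgr6+ cells as a subpopulation of Lgr5+ progenitors. By q-PCR it found *Lgr5* and *Lgr6* higher in the respective sorted cells than in the Lgr5- and Lgr6- cells.

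The 8 genes lie on 6 chromosomes, and their positions are those of the table, read as GRCm38 (mm10). *Gjb2* (chr14:57098602-57104702) and *Gjb6* (chr14:57123301-57133611) are neighbors with 18598 bases between them, and *Gja3* lies 40571 bases to the other side of *Gjb2*. *Gja4* (chr4:127311420-127314039) and *Gjb5* (chr4:127354809-127358164) lie on the same chromosome. The others are *Gjc1* (chr11:102799478-102819686), *Gja1* (chr10:56377300-56390419), *Gjc3* (chr5:137953809-137962959) and *Gjb1* (chrX:101377337-101385624). No other gene of the table overlaps any of the 8 intervals. In the GENCODE vM1 annotation the coding sequence of 7 of the 8 genes lies in a single exon, as is typical of connexins, and that of *Gjc3* lies in 2 exons. The coding sequence, stop codon included, runs from 681 bases in *Gjb2* to 1191 bases in *Gjc1*. Although the 8 genes are relatives, their longest annotated transcripts share no identical run longer than 28 bases, the run between *Gjc1* and *Gjc3*, and *Gjb2* and *Gjb6* share at most 20 bases. These runs are far shorter than the reads that the methods describe.

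To show the sequence from which the abundant neighbors *Gjb2* and *Gjb6* are read, the 250 bases before each start site are given 5′ to 3′ on the strand of the gene, from the RefSeq promoters of GRCm38.p6. *Gja1* is added because it is the connexin best known from other tissues and was low here. The windows are chr14:57104703-57104952 on the minus strand for *Gjb2*, chr14:57133612-57133861 on the minus strand for *Gjb6* and chr10:56377050-56377299 on the plus strand for *Gja1*. Capitals mark matches, on either strand, to the GC box GGGCGG, the TATA box TATAAA or the CCAAT box CCAAT, and no match overlaps another in these windows.
Gjb2: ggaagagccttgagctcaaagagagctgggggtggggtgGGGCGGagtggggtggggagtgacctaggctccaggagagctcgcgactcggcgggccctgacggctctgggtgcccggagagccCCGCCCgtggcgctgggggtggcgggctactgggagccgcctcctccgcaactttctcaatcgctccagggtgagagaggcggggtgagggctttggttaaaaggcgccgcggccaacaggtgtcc
Gjb6: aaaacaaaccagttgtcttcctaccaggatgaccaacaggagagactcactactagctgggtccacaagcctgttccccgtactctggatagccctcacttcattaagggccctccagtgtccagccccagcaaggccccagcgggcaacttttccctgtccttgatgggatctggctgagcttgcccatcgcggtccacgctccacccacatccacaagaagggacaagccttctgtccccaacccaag
Gja1: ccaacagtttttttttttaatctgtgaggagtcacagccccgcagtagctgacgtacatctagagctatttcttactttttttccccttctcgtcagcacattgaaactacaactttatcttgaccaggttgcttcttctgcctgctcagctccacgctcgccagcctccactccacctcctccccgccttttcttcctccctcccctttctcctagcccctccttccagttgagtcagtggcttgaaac

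The *Gjb2* window held 2 GC boxes, which 32.7% of all 32851 promoters of the same length hold at least once. It held no exact match to the TATA box or the CCAAT box. TATAAA was found in 12.4% and CCAAT in 33.8% of all promoters. The *Gjb6* and *Gja1* windows held none of these motifs. *Gjb2* had 18 CpG dinucleotides and 69.2% G and C, *Gjb6* had 5 CpG and 56.8%, and *Gja1* had 6 CpG and 50% in their windows, against a median of 6 CpG and 52.4% over all promoters. The neighbors *Gjb2* and *Gjb6* thus differed in these features of their promoters. Variants of the motifs were not searched, so a window without a match can still hold a similar element. A match is only a match of letters and was not linked to a factor or to the levels below.

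*Gjb2*, which encodes Cx26, had the highest FPKM of all connexins, 177 in Lgr5+ cells and 156.7 in Lgr6+ cells. The log2 change was -0.17, and the FPKM in Lgr5+ cells was 1.13 times that in Lgr6+ cells. The gene ranked 653 of 23997 in Lgr5+ cells and 656 in Lgr6+ cells, so its place among all genes was nearly the same. *Gjb6*, which encodes Cx30 and whose product joins Cx26 in mixed channels, had an FPKM of 104.2 in Lgr5+ cells and 92.9 in Lgr6+ cells. Its log2 change was -0.16 and it ranked 1044 and 1052. The ratio of *Gjb2* to *Gjb6* was 1.70 in Lgr5+ cells and 1.69 in Lgr6+ cells, so the neighboring genes kept the same proportion in both populations. Both small differences changed direction with the scaling, since the log2 change became 0.088 for *Gjb2* and 0.098 for *Gjb6* when the populations were scaled to the same summed FPKM, and neither gene reached 1.5-fold under any setting tried. Of the 1331 genes whose higher FPKM was 90 or more, 42.1% were past 1.5-fold, 10.9% toward Lgr6+ cells and 31.2% toward Lgr5+ cells. In sorted cells of mixed type, fewer cells of a type and less RNA per cell cannot be told apart, and this holds for all values given here.

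**Figure D1:**
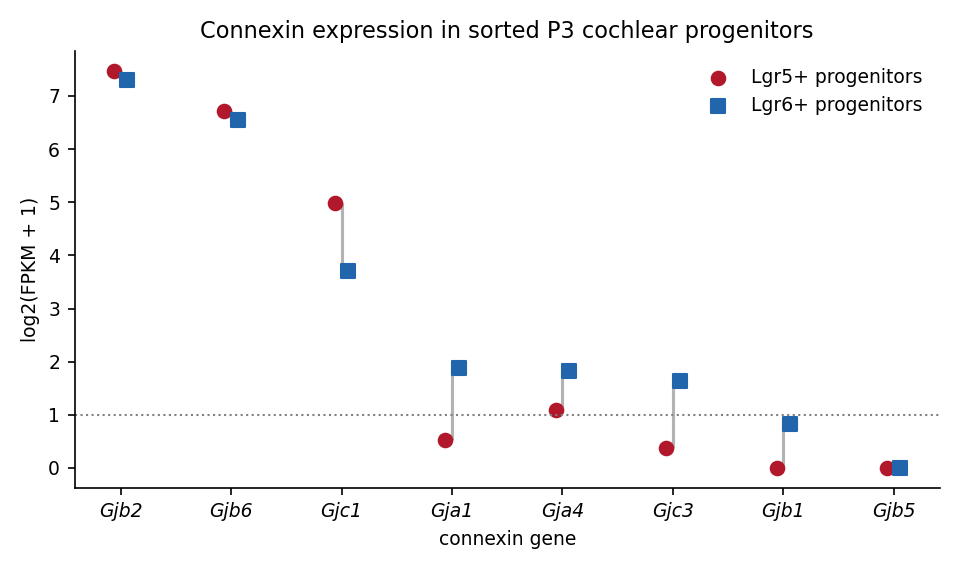
The plot shows log2(FPKM + 1) of each of the 8 connexin genes, with red circles for Lgr5+ cells, blue squares for Lgr6+ cells, a gray line joining them, and a dotted line at an FPKM of 1. There is 1 combined value per population and no error bar, and *Gjb2* and *Gjb6* lie highest with small differences whose direction depends on the scaling. *Gjc1* is the one connexin past 1.5-fold toward Lgr5+ cells, as were 23.3% of all kept genes.

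*Gjc1*, which encodes Cx45, a connexin known from the early heart and from smooth muscle, had an FPKM of 30.7 in Lgr5+ cells and 12.0 in Lgr6+ cells. The FPKM was 2.55 times higher in Lgr5+ cells, and the log2 change was -1.28. The log2 change was between -1.34 and -1.03 under the alternatives that kept a pseudocount or a scaling. It was -1.35 as a ratio of FPKM alone, so *Gjc1* stayed past 1.5-fold toward Lgr5+ cells under each of them. These alternatives all start from the same combined values and are no replicate check. Over all kept genes 23.3% were past 1.5-fold toward Lgr5+ cells. The gene ranked 2962 in Lgr5+ cells and 6019 in Lgr6+ cells. Relative to *Gjc1*, *Gjb2* was 5.77 times higher in Lgr5+ cells and 13.0 times higher in Lgr6+ cells. The summed FPKM of 8 pericyte and smooth muscle markers, a cell type known for Cx45, was 12.7 in Lgr5+ cells and 13.5 in Lgr6+ cells. Of these 8 markers 3 were kept, 1 of them past 1.5-fold toward Lgr6+ cells, which is *Rgs5* with 0 and 2.64. In that direction 28.5% of all kept genes were past 1.5-fold. *Acta2*, which encodes smooth muscle actin, was the 1 marker listed at 0 in both.

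*Gja1*, which encodes Cx43, the connexin of ventricular heart muscle and astrocytes, had an FPKM of 0.442 in Lgr5+ cells and 2.70 in Lgr6+ cells. The log2 change was 1.36, and the ratio of FPKM was 6.11. *Gja1* was thus low in both populations, where *Gjb2* was 400.4 times and 57.98 times higher. *Gja4*, which encodes Cx37, a connexin of arterial endothelium, had 1.12 in Lgr5+ cells and 2.53 in Lgr6+ cells, with a log2 change of 0.74. It was past 1.5-fold toward Lgr6+ cells, except after quantile normalization, where the log2 change was 0.40. *Gjc3*, which encodes Cx29, a connexin of myelinating Schwann cells, had 0.295 and 2.10, with a log2 change of 1.26 and a ratio of FPKM of 7.11.

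*Gjb1*, which encodes Cx32, another connexin of myelinating Schwann cells and the one mutated in X-linked Charcot-Marie-Tooth disease, was listed at 0 in Lgr5+ cells and at 0.769 in Lgr6+ cells. It did not reach an FPKM of 1 in either population, so it was not kept, and no ratio is given against a value of 0. *Gjb5*, which encodes Cx31.1, a connexin of skin and placenta, was listed at 0 in both populations. A listed 0 can also be a failed estimate, and it does not show that the gene was silent.

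The table gives no counts, but low FPKM values, once multiplied by transcript length, pile up at some products. The product with the largest excess of genes over the products just beside it is called a step here. In Lgr5+ cells 64 genes lay at the step, against a mean of 4.5 beside it. In Lgr6+ cells 22 genes lay there, against 5.0. Whether other low values lie on multiples of the step was not tested. The step was 3.18 times larger in Lgr5+ cells than in Lgr6+ cells. Whether a step is 1 fragment of 1 library is not known, since the values combine libraries, and the number of steps depends on the annotated transcript length. With the longest annotated transcript, *Gja1* in Lgr5+ cells stood at 10.0 steps, *Gja4* at 13 and *Gjc3* at 7.64. In Lgr6+ cells the same genes stood at 195, 93.3 and 173 steps. The Lgr5+ values of these genes are therefore only a few steps in size and are to be read with more caution. How certain each value is was not tested. For *Gjb1* 1 step in Lgr5+ cells is an FPKM of 0.092, and the value of *Gjb1* in Lgr6+ cells would be 8.32 of those steps. *Gjc1* stood at 506 steps in Lgr5+ cells and 632 in Lgr6+ cells, and *Gjb6* at 1551 and 4393.

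In Lgr5+ cells the order of the levels from the highest was *Gjb2*, *Gjb6*, *Gjc1*, *Gja4*, *Gja1* and *Gjc3*, with *Gjb1* and *Gjb5* at 0. In Lgr6+ cells *Gja1* and *Gja4* changed places and *Gjb1* came before *Gjb5*. Without a spread between replicates, it cannot be said which neighbors in this order differ, and *Gja1*, *Gja4* and *Gjc3* lay between 2.10 and 2.70 in Lgr6+ cells. *Gjb2* and *Gjb6* together made up 89.6% of the summed FPKM of the 20 connexin genes in Lgr5+ cells and 92.5% in Lgr6+ cells. *Gjc1* made up 9.76% and 4.46%. The other connexins together made up 0.681% and 3.02%, so the connexin transcripts of both populations were mostly those of the 2 main cochlear connexins.

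Of the 8 genes, 6 were kept, and 3 of these, *Gja1*, *Gja4* and *Gjc3*, were past 1.5-fold toward Lgr6+ cells, while 1, *Gjc1*, was past it toward Lgr5+ cells. Over all kept genes 51.8% were past 1.5-fold, 28.5% toward Lgr6+ cells and 23.3% toward Lgr5+ cells, and the last 2 shares were 37.6% and 16.3% after scaling to the same summed FPKM. Among the 3423 kept genes whose higher FPKM was under 5, the range in which *Gja1*, *Gja4* and *Gjc3* lie, 62.3% were past 1.5-fold, 41.2% toward Lgr6+ cells and 21.1% toward Lgr5+ cells. Passing 1.5-fold toward Lgr6+ cells was therefore common among genes of low FPKM. *Gja1* and *Gjc3* were kept through their Lgr6+ value alone, so they could be kept only as genes that are higher there. With an FPKM of at least 5 asked of at least 1 population, *Gja1*, *Gja4* and *Gjc3* drop out and 0 of the 8 genes were past 1.5-fold toward Lgr6+ cells. The median log2 change of the 6 kept connexins was 0.29.

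**Figure D2:**
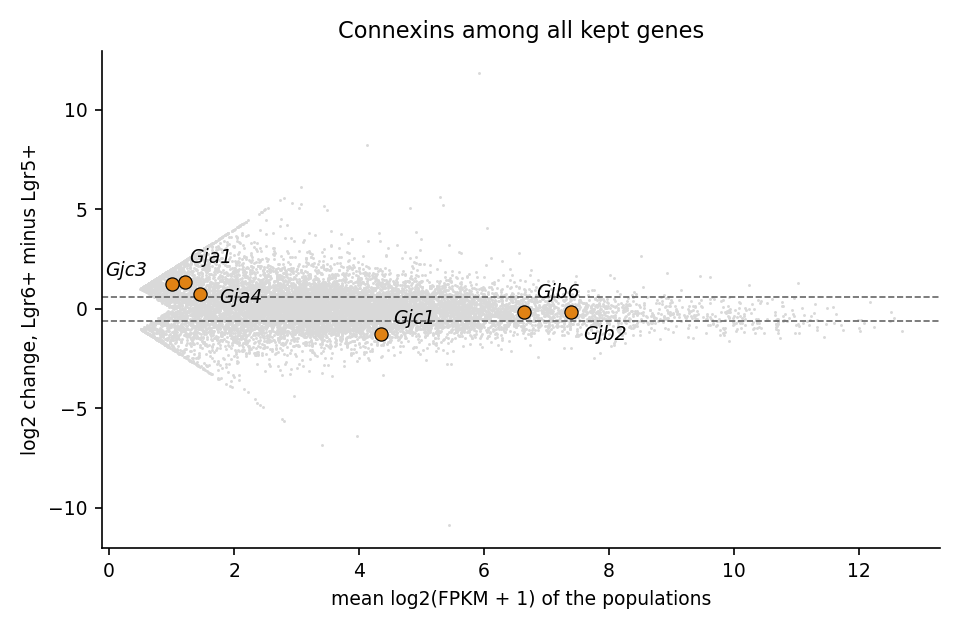
The plot shows the log2 change (Lgr6+ minus Lgr5+) of the 13436 kept genes in gray against their mean log2(FPKM + 1), with the 6 kept connexins in orange and dashed lines at 1.5-fold in each direction. *Gjc3*, *Gja1* and *Gja4* lie at the low end, where gray points spread widely, *Gjc1* lies below the lower line, and *Gjb2* and *Gjb6* lie between the lines, where the sign of their change depends on the scaling.

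None of the other 12 connexin genes was kept. Of these, 9 were listed at 0 in both populations, among them *Gja6*, *Gja10*, *Gjd2*, *Gjd3* and *Gjd4*. *Gja5*, a connexin of arterial endothelium like *Gja4*, and *Gja3*, a lens connexin beside the abundant *Gjb2*, were also listed at 0. The remaining 3 genes had traces, with an FPKM under 1 in both populations. *Gje1* had an FPKM of 0.146 in Lgr5+ cells and 0.047 in Lgr6+ cells. *Gje1* is also an older name of *Gjc3*, but the table lists *Gje1* on chromosome 10 and *Gjc3* on chromosome 5, so they are separate genes here. In the chromosome 14 neighborhood *Gjb2* and *Gjb6* stood above 90 while *Gja3* was at 0.

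Pannexins form membrane channels related to gap junction proteins, and *Panx1* and *Panx2*, 2 of the 3 pannexin genes, were past 1.5-fold toward Lgr5+ cells. So were 23.3% of all kept genes, and 2 genes are too few to set against that share. *Panx1*, known as a channel that releases ATP, had an FPKM of 37.1 in Lgr5+ cells and 14.1 in Lgr6+ cells, a log2 change of -1.33. *Panx1* was thus at a level and a change close to those of *Gjc1*. *Panx2* had 2.72 and 0.633, and *Panx3* was listed at 0 in both.

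Of 15 genes for scaffold, adhesion and regulatory partners of gap junction plaques, all 15 were kept, 4 were at least 1.5-fold higher in Lgr6+ cells, 4 were at least 1.5-fold higher in Lgr5+ cells and 7 were neither. *Csnk1d*, a casein kinase that phosphorylates Cx43, had an FPKM of 63.3 in Lgr5+ cells and 17.9 in Lgr6+ cells, a log2 change of -1.77. *Cdh1*, which encodes E-cadherin, had 137.9 and 68.7, a log2 change of -0.99. *Cdh2*, which encodes N-cadherin, had 107.1 and 60.5. Both cadherins were thus higher in Lgr5+ cells, as was *Akap5*, a kinase anchoring protein, with 1.71 and 0.201. Toward Lgr6+ cells, *Cnst*, which encodes consortin, a receptor for connexin traffic from the Golgi, had 7.57 in Lgr5+ cells and 14.7 in Lgr6+ cells. *Prkca*, a protein kinase C that phosphorylates connexins, had 2.17 and 6.08. *Tjp1*, whose product ZO-1 binds the tail of Cx43, had 7.84 and 11.7 and was not past 1.5-fold. *Cav1*, which encodes caveolin 1, abundant in endothelium, had 0.551 in Lgr5+ cells and 11.9 in Lgr6+ cells.

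Gap junctions of SCs are thought to carry potassium away from the HCs. A list of 9 genes, set up for potassium recycling in SCs and in the lateral wall, was examined. Of these, 8 were kept, 3 were at least 1.5-fold higher in Lgr6+ cells, 1 was at least 1.5-fold higher in Lgr5+ cells and 4 were neither. *Slc1a3*, the glutamate and aspartate transporter of SCs beside inner HCs, had an FPKM of 12.8 in Lgr5+ cells and 29.2 in Lgr6+ cells, a log2 change of 1.13. *Slc12a7*, a potassium chloride cotransporter, had 24.2 and 22.9, and *Kcnj10*, an inward rectifier, had 2.83 and 2.50, so neither was past 1.5-fold. *Kcnq1*, the potassium channel of strial marginal cells, was listed at 0 in Lgr5+ cells and at 4.83 in Lgr6+ cells, while *Kcne1*, its partner subunit, was listed at 0 in both. Of all 25 kept genes of the pannexins, junction partners and potassium recycling list, 28% were past 1.5-fold toward each population, near the shares over all kept genes. The median log2 change of the 25 genes was -0.12. After scaling to the same summed FPKM, 5 were past 1.5-fold toward Lgr5+ cells and 9 toward Lgr6+ cells.

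**Figure D3:**
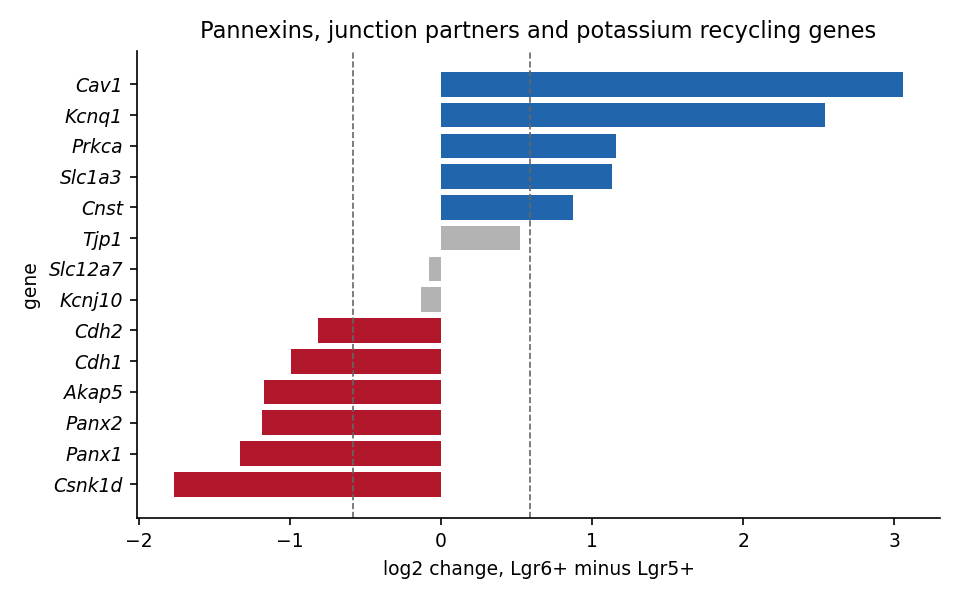
The bars give the log2 change (Lgr6+ minus Lgr5+) of the 14 kept pannexin, junction partner and potassium recycling genes that are named with values in the text, red where at least 1.5-fold higher in Lgr5+ cells, blue where at least 1.5-fold higher in Lgr6+ cells and gray otherwise, with dashed lines at 1.5-fold. The longest bars are those of *Cav1* and *Kcnq1* toward Lgr6+ cells and of *Csnk1d* and *Panx1* toward Lgr5+ cells.

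Several of the 8 connexins are also made by other cochlear cell types, so lists of cell type markers were summed in each population. Beside every marker count below stand the shares over all kept genes. These were 28.5% past 1.5-fold toward Lgr6+ cells and 23.3% toward Lgr5+ cells. The 10 SC markers summed to an FPKM of 3969 in Lgr5+ cells and 3604 in Lgr6+ cells, with *S100a1* alone at 2959 and 3177. All 10 passed an FPKM of 1 in both populations, and the direction of the sum turned after scaling to the same summed FPKM or quantile normalization. Without *S100a1*, which was set apart after its value was seen, the sums were 1010 and 427, which is 2.36 times higher in Lgr5+ cells. *Hes5*, a Notch target, had 505.2 and 91.7, and without it as well the sums were 505 and 336, which is 1.5 times higher. Among the SC markers, 3 were at least 1.5-fold higher in Lgr5+ cells, *Hes5*, *Sox2* and *Jag1*, and 1 was at least 1.5-fold higher in Lgr6+ cells, *Lfng*. The 8 HC markers, a cell type without gap junctions, summed to 710 and 915, and 6 of them were past 1.5-fold toward Lgr6+ cells. By any amount, 7 of the HC markers had the higher FPKM in Lgr6+ cells and 1, *Pvalb*, in Lgr5+ cells. The largest log2 change was that of *Otof*, with 41.6 in Lgr5+ cells and 171 in Lgr6+ cells. *Pvalb* made up much of both sums, with 476.9 in Lgr5+ cells and 408.4 in Lgr6+ cells, and was not past 1.5-fold.

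The 9 fibrocyte and mesenchyme markers, from cells that also use *Gjb2* and *Gjb6*, summed to 325 in Lgr5+ cells and 602 in Lgr6+ cells. Of these, 5 were past 1.5-fold toward Lgr6+ cells and 1 toward Lgr5+ cells, and *Otos* had 5.60 and 248. The 1 marker toward Lgr5+ cells, *Lum*, had 179 and 101. Without *Otos*, which was set apart after its value was seen, the other 8 summed to 319 and 354, so the sum was 1.85 times higher in Lgr6+ cells with *Otos* and 1.11 times higher without it. For *Gjc3* and *Gjb1*, the 9 Schwann cell and glia markers summed to 99.8 and 239, and 5 of them were past 1.5-fold toward Lgr6+ cells and 2 toward Lgr5+ cells. *Prx* and *Cldn19* were listed at 0 in Lgr5+ cells. In the other direction *Mag* had 3.08 and 0.043, and the 2 markers past 1.5-fold toward Lgr5+ cells together made up 65.7% of the Lgr5+ sum and 8.26% of the Lgr6+ sum.

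For *Gja4*, the 10 endothelial markers summed to 34.5 in Lgr5+ cells and 179 in Lgr6+ cells, and 9 of them were past 1.5-fold toward Lgr6+ cells and 1 toward Lgr5+ cells. *Kdr* was the one endothelial marker listed at 0 in Lgr5+ cells. The 8 macrophage markers summed to 1.47 and 229, and 5 of them were listed at 0 in Lgr5+ cells. The 5 melanocyte and intermediate cell markers summed to 0.507 and 3.85, with *Mlana* and *Tyrp1* at 0 in both. The summed markers of glia, endothelium and macrophages were thus higher in Lgr6+ cells together with the low connexins *Gja1*, *Gja4*, *Gjc3* and *Gjb1*. The sums of HC, fibrocyte and mesenchyme, and melanocyte and intermediate cell markers were also higher there. The part of any of these cell types in the connexin values was not tested.

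**Figure D4:**
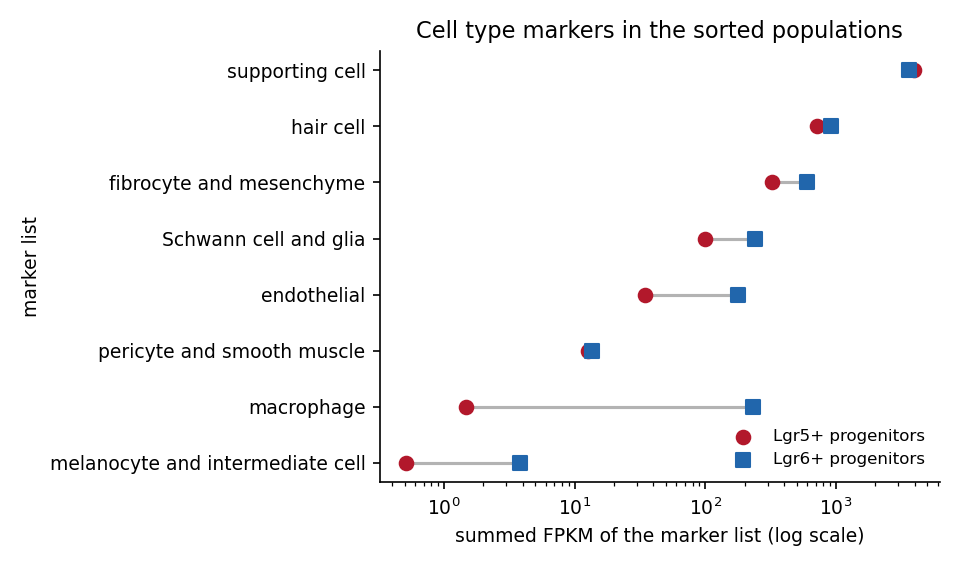
The plot shows the summed FPKM of each cell type marker list on a log scale, with red circles for Lgr5+ cells, blue squares for Lgr6+ cells and a gray line joining them. The SC sums lie close together at 3969 and 3604, with a direction that turns after scaling to the same summed FPKM or quantile normalization, and the macrophage and endothelial sums lie far apart, at 1.47 and 229 and at 34.5 and 179.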

How the data were processed

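The values are RNA-Seq of EGFP+ cells sorted from P3 cochleae, in 2 populations with 2 libraries each by the labels. According to the methods and the submitters' processing notes, the authors used Trimmomatic for trimming and TopHat for mapping, and Cufflinks with RefGene annotation gave the FPKM, and versions are not given in the sources used here. The methods name mm9 and the processing notes mm10. Of 22369 symbols matched to RefSeq GRCm38.p6, 99.4% of the intervals overlap that gene, and table starts count from 0, so 1 was added. The deposited FPKM are 1 combined value per population, so the depth behind each value and the replicate spread are unknown. The fold change, p-value and q-value columns hold the authors' own comparison and were not used.

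The members, the gene lists and the marker lists were chosen with earlier results of these data known. The table was known to hold 1 value per population, so no test was planned. Kept genes reached an FPKM of 1 in either population, and calls used 1.5-fold on log2(FPKM + 1). The FPKM bands under 5 and from 90 were set after values were seen. Steps were searched over a set range of low products of FPKM and transcript length less 200 bases. The step is the product with the largest excess of genes over those just beside it. The search used 6908 genes with 1 annotated transcript in GENCODE vM1, which is on NCBIM37 and was used for lengths and exons only. The rule for named genes took all 8 members, other connexins that were kept, partners past 1.5-fold, the 3 genes nearest to each of the 2 highest members, and *Lgr5*, *Lgr6* and *Sox2*. Other connexins below that limit, partners within 1.5-fold and single markers were named after their values were seen. *Gjc1* has no entry in the promoter table. Some of the genes counted in the lists are not reported here by name. Python 3.11.15, numpy 2.4.6, pandas 2.3.3 and matplotlib 3.10.9 were used.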

Additional observations from a re-analysis of the deposited data

How the results depend on the processing

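The results were recalculated with a pseudocount of 0.1, no pseudocount, no filter, an FPKM of at least 5, quantile normalization, the same upper quartile, a 2-fold threshold and, chosen after seeing the data, the same summed FPKM. Of 112 recalculated values, 100 kept their direction and their side of 1.5-fold, or for counts stayed within 1.5 times. Many of these could not change, so the share is no measure of robustness. A change of filter leaves the log2 change of a single gene as it is, and the counts of all connexins repeat those of the members. The same summed FPKM turned the log2 change of *Gjb2* to 0.088 and of *Gjb6* to 0.098, the summed SC markers to 1.09 times the Lgr5+ sum and the summed HC markers to 1.55 times. Quantile normalization gave a log2 change of 0.40 for *Gja4*, and ratios of 1.21 for the SC sum and 0.877 for the pericyte and smooth muscle sum. Without a filter *Gjb1* entered, at 0.82. With an FPKM of at least 5 the members, and all connexins, past 1.5-fold toward Lgr6+ cells numbered 0 in place of 3. At 2-fold the partner genes numbered 4 toward Lgr5+ cells and 4 toward Lgr6+ cells, in place of 7 and 7. The ratio without a pseudocount gave no value for genes listed at 0. No paired analysis was possible because the table holds 1 combined value per population, and for the same reason no replicate could be left out. The depth of each population is unknown, and the step of low FPKM values was 3.18 times larger in Lgr5+ cells.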

Other observations

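By the distance between both log2(FPKM + 1) values, over 2 populations, the genes nearest to *Gjb2* were *Ube2m* at 0.021, *Mrpl13* at 0.043 and *Tmem208* at 0.050. The genes nearest to *Gjb6* were *Ube2b* at 0.036, *Aldoc* at 0.041 and *Hnrnpa0* at 0.049. With only 2 values per gene, such nearness describes a like level and a like change in these libraries and nothing more.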
